A study of Homo sapiens with 11 samples.

Results

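The DNAJ genes encode the HSP40 or J-protein co-chaperones, and 42 of the 25590 genes in the expression tables were taken as the family because their symbol is DNAJA, DNAJB or DNAJC followed by a number. Class A held 4 of them, class B 12 and class C 26, and 1 further class B gene with a matching symbol was left out by the rule and is not described here. RNA had been sequenced from 11 tumours grown from PC-3, a human prostate carcinoma cell line, under the skin of male athymic nude mice (Crl:NU-Foxn1nu) aged 8 weeks. The 5 PBS tumours came from mice given phosphate-buffered saline and the 6 A2M* tumours from mice given A2M*, the transformed (activated) form of the plasma proteinase inhibitor alpha-2-macroglobulin, at 5.6 mg per 20 g of body weight into the peritoneum, repeatedly from day 7. All tumours were injected in matrigel, all derive from 1 cell line, and nude mice have no thymus and lack mature T cells. Each tumour gave 1 library, named here as T123 to T127 (PBS) and T128 to T132 and T112 (A2M*). Nothing in the labels ties the tumours to separate mice, so p-values measure the spread between these tumours.

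J-proteins work with the HSP70 chaperones. The J domain that gives the family its name stimulates the ATPase of HSP70, which then closes on its client protein, and nucleotide exchange factors such as HSPH1 and BAG3 open it again. Classes A and B also bind clients themselves. Class A carries a zinc-finger region beside a glycine- and phenylalanine-rich stretch, class B carries that stretch without the zinc finger, and class C holds proteins that share the J domain alone and bring HSP70 to one place or task, such as the ribosome, the mitochondrial import pore, clathrin-coated vesicles or the spliceosome. DNAJB1 and DNAJA1 are cytosolic partners of HSPA8 and HSPA1A, DNAJA3 is the class A partner of HSPA9 in mitochondria, and DNAJB11 and DNAJC3 serve HSPA5 in the endoplasmic reticulum (ER). Heat shock factor 1 induces DNAJB1 and several HSP70-system genes under protein stress, and the unfolded protein response induces DNAJB11, DNAJC3 and HSPA5.

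Heat shock factor 1 binds inverted units of GAA, so the promoters of the family were searched for 1 pair of such units, GAANNTTC or TTCNNGAA. Both forms read the same on either strand. The windows were those of RefSeq on GRCh38.p14, from 250 bases before to 50 bases after each annotated start, and 38 of the 42 genes matched (DNAJB3, DNAJC1, DNAJC22 and DNAJC24 did not). The pair was present for 8 of 38 family genes (21.1%) and for 16.2% of 27305 genes in the same table. By class it was present for 2 of 4 genes in class A, 4 of 11 in class B and 2 of 23 in class C. The following stretches are shown because they belong to DNAJA1 and DNAJB1, the members with the extreme fold changes in these tumours, and to DNAJB4 and DNAJB6, class B members that also hold the pair. Each is written 5′ to 3′ on the gene's strand with the matched units in capitals.
DNAJA1, chr9:33025055-33025102 (plus strand), match beginning 198 bases before the start: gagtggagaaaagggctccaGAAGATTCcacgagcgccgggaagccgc
DNAJA1, chr9:33025276-33025288 (plus strand), beginning at base 4 after the start: GAACTTTCCAGAA
DNAJB1, chr19:14518417-14518494 (minus strand), 77 and 47 bases before 1 of its annotated starts: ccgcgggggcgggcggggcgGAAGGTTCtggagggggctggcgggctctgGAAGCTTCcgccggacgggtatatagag
DNAJB4, chr1:78004821-78004868 (plus strand), 98 bases before the start: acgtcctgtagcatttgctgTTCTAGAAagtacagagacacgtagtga
DNAJB6, chr7:157336853-157336905 (plus strand), an overlapping run of units before the start: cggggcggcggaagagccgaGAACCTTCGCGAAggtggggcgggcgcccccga

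A run of 3 units, GAANNTTCNNGAA on either strand, overlaps the pair by construction. It was present in the windows of DNAJA1 and DNAJB6 (5.26% of 38) and for 0.608% of all genes in the table. The ER stress element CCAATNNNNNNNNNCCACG was in no window of the 38 genes and in 0.0916% of genes, and CCAAT alone was present for 39.5% of the family and 39.7% of genes. The window of DNAJB11 held 3 CCAAT boxes in reverse orientation, shown in capitals because this gene is the ER-lumen member of class B.
DNAJB11, chr3:186570535-186570701 (plus strand), 165, 86 and 43 bases before the start: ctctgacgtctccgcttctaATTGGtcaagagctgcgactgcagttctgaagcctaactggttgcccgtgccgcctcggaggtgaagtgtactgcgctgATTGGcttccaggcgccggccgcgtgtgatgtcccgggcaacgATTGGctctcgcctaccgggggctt
A match says only that these letters occur in the window. Which annotated start the tumours used was not tested.

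The tumours carried 26042224 to 35874381 human gene counts in PBS and 16958533 to 33223999 in A2M* (difference of the group means by two-sided exact permutation, p = 0.119). All 7 genes used as markers of PC-3 tumour cells (the epithelial genes KRT8, KRT18, KRT19, EPCAM and CDH1, the mesenchymal gene VIM, and CD44) had at least 4427 counts in every tumour, and their summed level was 1440 to 1710 RPKM in PBS and 1280 to 1670 RPKM in A2M*. Among luminal prostate markers, KLK3 had 0 counts in every tumour, KLK2 had at most 1, and TMPRSS2 reached 24.4 RPKM. The 6 leukocyte markers, mostly CD68 and LYZ, summed to 16.4 to 21.2 RPKM in PBS and 17.6 to 21.1 in A2M*. The 3 endothelial markers, mostly PECAM1, summed to 3.38 to 5.18 and 3.25 to 5.02, and the 7 fibroblast markers, mostly COL1A1, to 56.7 to 115.0 and 56.1 to 158.0. DCN had at most 3 counts and LUM at most 5. Only reads assigned to human were counted, so these sums do not measure the mouse host cells. RPKM is the read count per kilobase of exon and per 1000000 counts of the tumour, and is the scale used here to compare genes. In bulk RNA, fewer cells of a type and less RNA per cell cannot be told apart.

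The family took 0.248 to 0.288% of all counts. DNAJC9, a chaperone of histones H3 and H4, was the most abundant member at 109.3 RPKM (mean of 11 tumours), followed by DNAJB1 at 104.4, DNAJA1 at 94.7, DNAJB11 at 78.3 and DNAJB2, a ubiquitin-binding co-chaperone, at 71.5. The ranges over tumours of the first 4 overlapped: DNAJC9 spanned 97.4 to 121.6 RPKM, DNAJB1 78.1 to 164.3, DNAJA1 67.3 to 139.0 and DNAJB11 65.5 to 108.2. DNAJC8, which acts in splicing, stood at 48.2 RPKM and DNAJC5, the cysteine string protein of secretory vesicles, at 43.7. At or above 10 RPKM stood 22 of the 42 genes, and 10 were among the top 10% of all genes with any read.

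Within class A the level of DNAJA1 was set against 19.6 RPKM for mitochondrial DNAJA3, 17.9 for DNAJA2, its cytosolic relative, and 0.582 for DNAJA4. DNAJA1 alone made up 65.5 to 77.2% of the class sum in a tumour. Class B was spread more widely. DNAJB1 made up 24.1 to 42.8% of its sum, 4 of its 12 genes were below 1 RPKM, and DNAJB3, DNAJB7 and DNAJB8, known mainly from testis, had 0 to 1, 2 to 11 and 0 to 1 counts per tumour and did not pass the filter on low counts. DNAJB13, a gene of motile cilia and sperm tails, passed at 0.653 RPKM. In class C DNAJC9 made up 19.5 to 22.4% of the sum, 14 of 26 genes reached 10 RPKM and only DNAJC6, the clathrin-uncoating factor auxilin, was below 1 (0.333 RPKM).

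The median gene of class A stood at 18.7 RPKM, that of class C at 13.2 and that of class B at 7.98, beside 2.73 for all genes with any read. This order of class medians, A above C above B, held in 11 of 11 tumours. With the 3 class B genes under the filter left out, the class B median was 10.2 RPKM. The summed levels had another order, with class C highest (511 ± 17.4 RPKM in PBS, SD, n = 5, and 526 ± 16 in A2M*, SD, n = 6) and class B next (326 ± 36.2 and 331 ± 33.8). Class A summed to 115 ± 10 RPKM in PBS and 148 ± 18.9 in A2M*, 102.8 to 126.4 against 129.7 to 180.0, so the class A sums of the groups did not overlap. The non-overlap was not tested, since DNAJA1 makes up most of this sum.

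**Figure D1:**
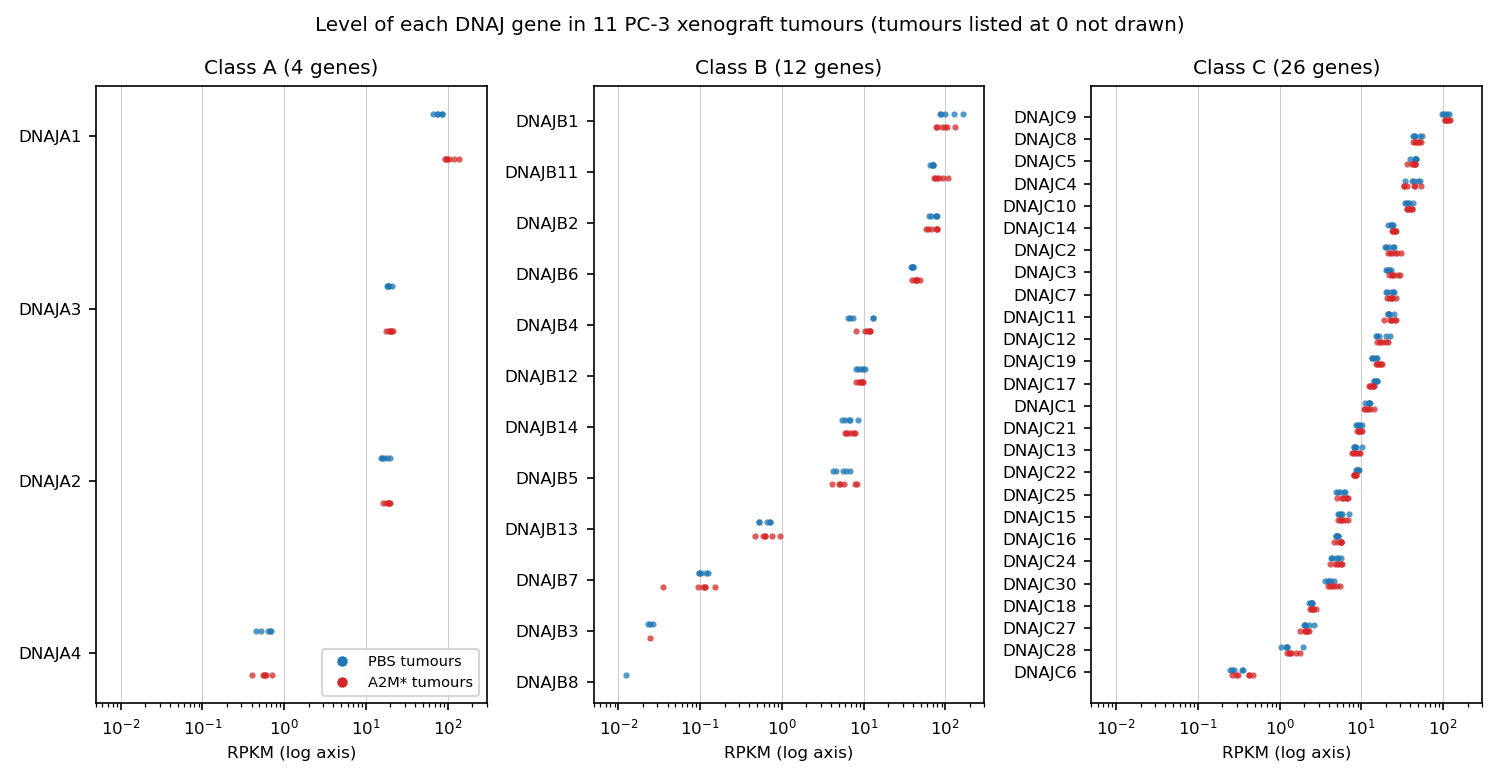
Level of each DNAJ gene in RPKM on a log axis, 1 panel per class and 1 point per tumour (blue PBS, red A2M*); tumours listed at 0 are not drawn. DNAJA1, DNAJB1 and DNAJC9 lead their classes near 100 RPKM, and in DNAJA1 the blue and red points are apart.

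The comparison of A2M* with PBS asked which family genes differed in RNA level between treated and untreated tumours. No family gene passed an adjusted p of 0.01 in edgeR's quasi-likelihood test, and neither did any of the 16630 genes tested (0.0%). The lowest adjusted p over all genes was 0.599. DESeq2 and edgeR's likelihood ratio test each called 1 gene at this threshold, not a DNAJ gene. Of the 39 family genes that passed the filter (4 in class A, 9 in class B, 26 in class C), 6 had an unadjusted p under 0.05, where 7.08% of all genes tested did. They were 4 genes with a higher level in A2M* (DNAJA1, DNAJB11, DNAJC3 and DNAJC19, beside 3.55% of all genes) and 2 with a lower one (DNAJC17 and DNAJC22, beside 3.53%). On CPM, counts per 1000000 normalized with edgeR's TMM factors, the groups did not overlap for DNAJA1, DNAJC17 and DNAJC22, where 0.71% of all genes had separate groups. Counts this small over 39 genes chosen as a family carry no test.

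The 3 classes had log2 fold changes (A2M* against PBS) centred near that of all genes, whose median was -0.00213. The median was 0.03 in class A (2 genes above 0 and 2 below), 0.04 in class B (5 and 4) and 0.01 in class C (15 and 11). Over the whole family 22 genes lay above 0 and 17 below, between -0.26 and 0.44. Without a filter on low counts the class B median was -0.03, so its sign depended on the filter.

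**Figure D2:**
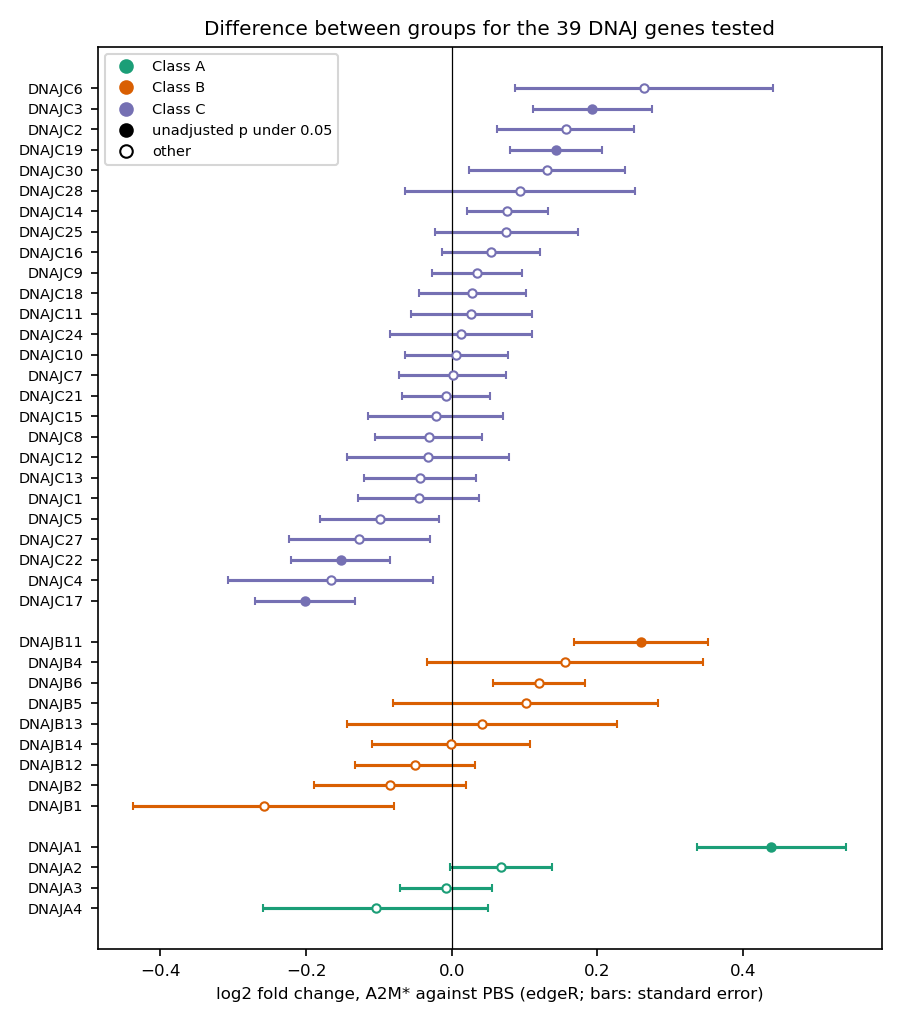
log2 fold change of A2M* against PBS for the 39 DNAJ genes tested (edgeR), coloured by class, with bars of 1 standard error; filled points have an unadjusted p under 0.05. DNAJA1 lies highest at 0.44 and DNAJB1 lowest at -0.26, and most genes lie within 0.2 of 0.

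DNAJA1 (GRCh37 chr9:33025271-33039905, plus strand), a cytosolic class A partner of HSPA8, had the smallest p of the family. Its level was 86.2, 73.8, 67.3, 85.2 and 77.1 RPKM in PBS tumours T123 to T127. In A2M* it was 139.0, 99.3, 105.7, 120.2 and 92.5 RPKM in T128 to T132 and 95.5 in T112. Every A2M* tumour was above every PBS tumour, and T128 and T131 were highest. The log2 fold change was 0.44 (standard error, SE, 0.103, unadjusted p = 0.000816, adjusted p = 0.599, edgeR). Over the other scalings, filters and tests its adjusted p ran from 0.0622 (DESeq2) to 0.736 (edgeR without a filter). The difference kept its direction and an unadjusted p of at most 0.00315 with each tumour left out in turn. In those fits its adjusted p was at least 0.344 (edgeR). Processed copies of DNAJA1 exist elsewhere in the genome, and how reads matching several places were counted is not given in the sources used here. Mitochondrial DNAJA3 (chr16:4475806-4506776, plus strand) stood at 19.3 ± 1.08 RPKM in PBS (SD, n = 5) and 19.8 ± 1.23 in A2M* (SD, n = 6), with a log2 fold change of -0.01 (SE 0.0635, 95% interval -0.15 to 0.14, adjusted p = 0.989, edgeR) whose sign flips under library size scaling and upper quartile scaling. DNAJA2 measured 17.2 and 18.5 RPKM and DNAJA4 0.596 and 0.571.

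DNAJB1 (chr19:14625581-14671203, minus strand), the main heat-inducible HSP40 of the cytosol, had the lowest log2 fold change of the family and did not pass the test. In PBS T123 to T127 it stood at 88.8, 87.0, 164.3, 126.4 and 98.0 RPKM. In A2M* it stood at 133.3, 104.9, 98.1, 79.7 and 90.2 RPKM in T128 to T132 and 78.1 in T112. The groups overlapped widely, with T125 and T126 highest in PBS and T128 highest in A2M*. The log2 fold change was -0.26 (SE 0.179, unadjusted p = 0.171, adjusted p = 0.828, edgeR). Leaving out T128 gave an unadjusted p of 0.0462, and over all tumours left out in turn the log2 fold change lay between -0.37 (without T128) and -0.07 (without T125). In the GENCODE annotation, exons of TECR and MIR639 on the other strand overlap DNAJB1. Whether they overlap the RefSeq exons counted was not examined. The strand setting of the counting is not given in the sources used here.

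The ratio of DNAJA1 to DNAJB1 in RPKM was 0.971, 0.848, 0.41, 0.674 and 0.787 in PBS T123 to T127. It was 1.04, 0.947, 1.08, 1.51 and 1.03 in A2M* T128 to T132 and 1.22 in T112. The means were 0.738 ± 0.212 (SD, n = 5) and 1.14 ± 0.203 (SD, n = 6). The groups overlapped at 1 pair of tumours, T129 of A2M* being just below T123 of PBS. This ratio was formed after the values of both genes were seen and was not tested.

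DNAJB11 (chr3:186285192-186303589, plus strand), the soluble class B co-chaperone of the ER lumen, was at 71.6, 70.9, 67.9, 71.3 and 65.5 RPKM in PBS T123 to T127. In A2M* it was at 94.4, 79.5, 84.8, 108.2 and 73.6 RPKM in T128 to T132 and 74.1 in T112. On the RPKM scale all A2M* tumours exceeded all PBS tumours, whereas on TMM-normalized CPM the groups overlapped. The log2 fold change was 0.26 (SE 0.0915, unadjusted p = 0.0133, adjusted p = 0.64, edgeR). In the GENCODE annotation, exons of TBCCD1 and HRG-AS1 on the other strand, and of an unnamed gene on the same strand, overlap DNAJB11. Among the remaining class B genes, DNAJB4, a close relative of DNAJB1, was at 6.89, 6.47, 12.9, 13.2 and 7.5 RPKM in PBS T123 to T127 and between 8.15 and 11.8 in A2M*, with T125 and T126 high as for DNAJB1. DNAJB6, which holds back protein aggregation, measured 37.8 to 40.2 RPKM in PBS and 38.95 to 48.4 in A2M*.

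**Figure D3:**
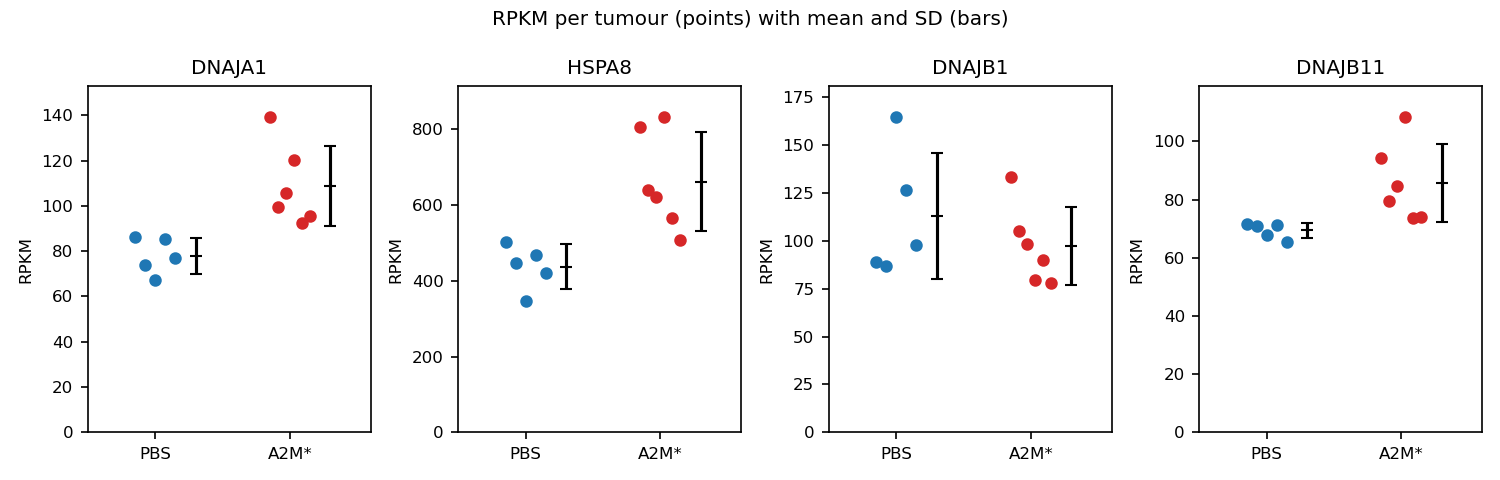
RPKM of DNAJA1, HSPA8, DNAJB1 and DNAJB11 in each tumour (points; blue PBS, red A2M*), with the mean and SD of the group as bars beside them; every axis starts at 0. For DNAJA1, HSPA8 and DNAJB11 all red points lie above all blue ones, and for DNAJB1 they overlap.

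In class C, DNAJC3 (chr13:96329393-96447242, plus strand), an ER-lumen co-chaperone of HSPA5 that also inhibits eIF2alpha kinases, was at 20.1, 21.6, 20.9, 23.1 and 21.9 RPKM in PBS T123 to T127. A2M* tumours T128 to T132 had 29.6, 24.1, 25.0, 28.5 and 21.6 RPKM and T112 had 23.5. T128 and T131 were highest, as for DNAJB11, and T132 lay inside the PBS range. The log2 fold change was 0.19 (SE 0.0821, unadjusted p = 0.0341, adjusted p = 0.677, edgeR). Without T123, T125, T128 or T131 its unadjusted p was above 0.05, at most 0.0883.

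DNAJC17 (chr15:41057359-41099676, minus strand) is a nuclear J-protein linked to splicing, and its mean was lower in A2M*. It had 15.5, 15.03, 14.4, 14.33 and 15.6 RPKM in PBS T123 to T127, and 12.4, 13.8, 13.2, 14.3 and 14.0 in A2M* T128 to T132 and 12.9 in T112. The groups did not overlap, though T131 of A2M* and T126 of PBS nearly met. The log2 fold change was -0.20 (SE 0.0691, unadjusted p = 0.0114, adjusted p = 0.64, edgeR). Exons of GCHFR, C15orf62 and ZFYVE19 overlap it on the other strand. DNAJC22 (chr12:49740671-49751329, plus strand), a membrane J-protein, had 9.03 ± 0.295 RPKM in PBS (SD, n = 5) and 8.38 ± 0.214 in A2M* (SD, n = 6). Its log2 fold change was -0.15 (SE 0.068, unadjusted p = 0.0421, adjusted p = 0.698, edgeR). DNAJC22 did not keep an unadjusted p under 0.05 under library size scaling, upper quartile scaling, no filter or edgeR's likelihood ratio test, nor without any 1 of T124, T125, T127, T129, T130, T131 and T132.

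For the most abundant class C genes the difference was small against its error. DNAJC9 (chr10:74943120-75007013, minus strand) measured 106.1 ± 8.67 RPKM in PBS (SD, n = 5) and 111.9 ± 6.44 in A2M* (SD, n = 6), with a log2 fold change of 0.03 (SE 0.0618, 95% interval -0.11 to 0.17, adjusted p = 0.941, edgeR). Exons of FAM149B1 overlap DNAJC9 on the other strand. DNAJC8 (chr1:28525967-28559540, minus strand) measured 48.0 and 48.3 RPKM, with a log2 fold change of -0.03 (SE 0.0738, 95% interval -0.20 to 0.14, adjusted p = 0.959, edgeR) whose sign flips under library size scaling. DNAJC19, a component of the mitochondrial protein import motor, was named after its values were seen. It measured 13.6 to 15.8 RPKM in PBS and 15.1 to 17.9 in A2M*, with a log2 fold change of 0.14 (SE 0.063, unadjusted p = 0.04, adjusted p = 0.698, edgeR). DNAJC19 did not keep an unadjusted p under 0.05 with no filter or in edgeR's likelihood ratio test. The same held without any 1 of T123, T124, T125, T127, T128, T130, T131 and T132.

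Placed by compartment, the genes of the cytosol and nucleus (15 tested) had 8 log2 fold changes above 0 and 7 below with a median of 0.00125. Those of the ER (10 tested) had 7 above and 3 below with a median of 0.04, and mitochondrial ones (7) had 4 and 3 with 0.03. Vesicle and endosome genes (4) had 1 and 3 with -0.07, and the 1 ribosome gene, DNAJC2, lay above 0. DNAJB13 and DNAJC22 were tested but placed in no compartment. No gene of these lists passed an adjusted p of 0.01.

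The spread between tumours of 1 group differed among members. The median within-group SD of log2 CPM was 0.142 for the family and 0.185 for all genes tested, and it was 0.145 in class A, 0.195 in class B and 0.134 in class C. DNAJB4, DNAJB5 and DNAJB1, close relatives within class B, were the most variable of the 39, with within-group SDs of 0.366, 0.35 and 0.344. DNAJC14, an ER-membrane J-protein, was the least variable at 0.0655.

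**Figure D4:**
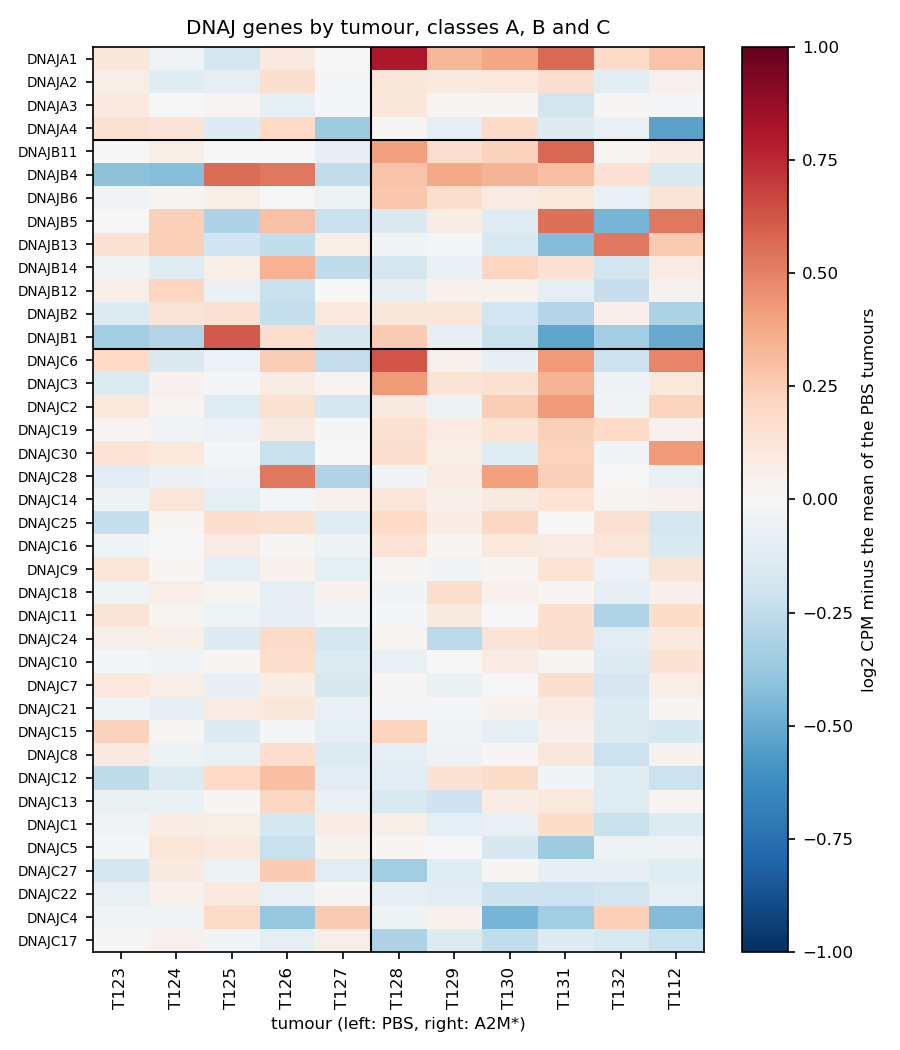
Heat map of the 39 DNAJ genes tested (rows, grouped by class) in the 11 tumours (columns, PBS left of the line), coloured by log2 CPM minus the mean of the PBS tumours from -1 (blue) to 1 (red). DNAJA1, DNAJB11, DNAJC14 and DNAJC19 are above 0 in all 6 A2M* tumours, and DNAJC17 and DNAJC22 are below 0 in all 6. Among the PBS tumours, DNAJB1 and DNAJB4 are highest in T125 and T126.

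The HSP70 system was read from lists chosen with earlier results of these data known. The 12 genes listed as HSP70 partners have HSPA symbols. HSPA4 and HSPA4L among them are exchange factors of the HSP110 type and lay above 0. The 12 had 10 log2 fold changes above 0 and 2 below with a median of 0.11. Of these, 2 had an unadjusted p under 0.05, both higher, where 3.55% of all genes tested were higher at this p. HSPA8, the constitutive cytosolic HSP70, measured 501.9, 447.6, 345.3, 468.2 and 419.5 RPKM in PBS T123 to T127 and 507.1 to 830.4 in A2M*. Its groups did not overlap, and its log2 fold change was 0.56 (SE 0.13, unadjusted p = 0.000805, adjusted p = 0.599, edgeR). Over the other scalings, filters and tests the adjusted p of HSPA8 ran from 0.0449 (DESeq2) to 0.736 (edgeR without a filter). DESeq2 put 23 of the 16630 genes below an adjusted p of 0.05. With a tumour left out the adjusted p of HSPA8 was at least 0.344 (edgeR). HSPA5, the HSP70 of the ER, measured 302.0 to 362.7 RPKM in PBS and 353.5 to 588.4 in A2M* (log2 fold change 0.33, SE 0.121, adjusted p = 0.642, edgeR). Without T131, its highest tumour, the log2 fold change of HSPA5 was 0.22. HSPA9, the mitochondrial HSP70, had a log2 fold change of 0.12 (SE 0.0958, adjusted p = 0.849, edgeR), and 0.06 without T131. HSPA1A and HSPA1B are near-identical copies whose reads cannot be divided with certainty, and no value is printed for either alone. Each still counts as a separate gene in the counts and medians of the lists, so their shared direction is not independent.

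Of the 11 nucleotide exchange factors, 8 lay above 0 and 3 below with a median of 0.06, and 1 had an unadjusted p under 0.05 in each direction (3.55% of all genes tested higher, 3.53% lower). HSPH1, an exchange factor of the HSP110 type, measured 25.6 to 35.3 RPKM in PBS and 32.5 to 65.2 in A2M* (log2 fold change 0.58, SE 0.166, unadjusted p = 0.00346, adjusted p = 0.599, edgeR), with overlapping groups. The 13 genes listed as heat shock factor 1 targets had log2 fold changes above 0, with a median of 0.34, and 9 of the 13 had an unadjusted p under 0.05 (3.55% of all genes tested were higher at this p). None passed an adjusted p of 0.01. HSPA8, HSPH1, BAG3, HSPA1A and HSPA1B stand on this list and on another. The list does not hold every heat-inducible gene, so its shared direction depends on which genes were put on it. DNAJB1, itself a heat shock factor 1 target, lay at -0.26, and HSPA6, a heat-inducible HSP70 counted among the HSP70 partners and named after its values were seen, lay at -0.41 (SE 0.266, adjusted p = 0.808, edgeR).

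Levels of co-chaperones and partners were compared over the 11 tumours for 7 pairs, by Pearson's r on log2 CPM with permutation p-values adjusted over the 7. With group means removed, the permutation still ran over all 11 tumours and not within groups, so those p-values are approximate. DNAJA1 and HSPA8 moved together over the tumours, with r = 0.954 (permutation p = 2e-05, adjusted p = 7e-05) and Spearman's rho = 0.945 (adjusted p = 0.000245). Without T128 and T131, farthest from the median of DNAJA1, r was 0.932 and with group means removed it was 0.881 (permutation, adjusted p = 0.00056). DNAJB11 and HSPA5 had r = 0.953 (permutation p = 1e-05, the smallest 100000 permutations can give, adjusted p = 7e-05), rho = 0.955, r = 0.858 without T128 and T131, and r = 0.922 with group means removed (permutation, adjusted p = 0.00049). DNAJC3 and HSPA5 had r = 0.847 (permutation, adjusted p = 0.00196) and rho = 0.927, and r = 0.815 without T128 and T131. Removing group means gave r = 0.758 (permutation, adjusted p = 0.017). Within the 6 A2M* tumours r was 0.882, 0.968 and 0.773 for these 3 pairs, which was not tested. The 5 PBS tumours are too few for a value of their own. DNAJA1, HSPA8, DNAJB11, DNAJC3 and HSPA5 all had their highest log2 CPM in T128 and T131. Among the 7 pairs only DNAJB1 with DNAJB11 crossed compartments, and pairs such as HSPA8 with DNAJB11 were not compared. Whether these relations are particular to a co-chaperone and its own HSP70 was therefore not tested.

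The 3 pairs of DNAJB1 did not pass the test over the 11 tumours. With HSPH1 it had r = 0.143 (permutation, adjusted p = 0.679), with DNAJA1 r = -0.203 (adjusted p = 0.679 by permutation) and with DNAJB11 r = -0.182 (adjusted p = 0.679 by permutation). With group means removed, r with HSPH1 was 0.573 (permutation, adjusted p = 0.115), r with DNAJA1 turned to 0.134 and r with DNAJB11 to 0.0686. Without T125 and T128, farthest from the median of DNAJB1, r was -0.167 with HSPH1, -0.402 with DNAJA1 and -0.438 with DNAJB11. Within the 6 A2M* tumours r was 0.539 with HSPH1, 0.594 with DNAJA1 and 0.141 with DNAJB11, which was not tested. DNAJA3 and HSPA9 in mitochondria had r = -0.412 (permutation, adjusted p = 0.36), and r = 0.33 without T126 and T131. Log2 CPM of genes in the same library share its depth and normalization.

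**Figure D5:**
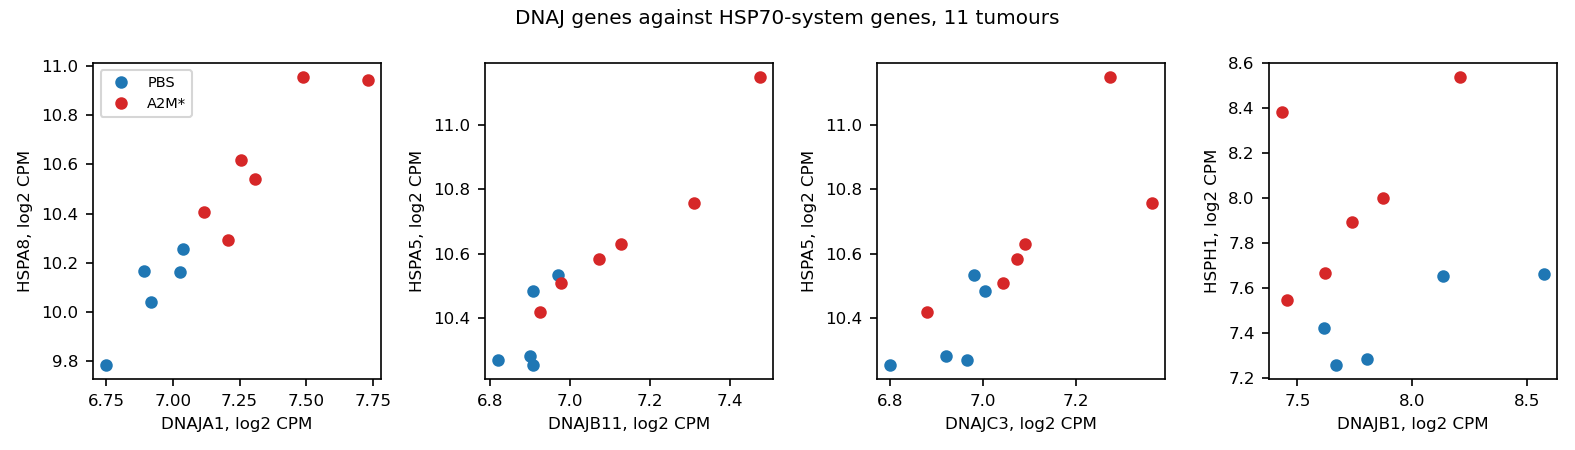
log2 CPM of 4 pairs of co-chaperone and partner genes in the 11 tumours (blue PBS, red A2M*), with DNAJA1, DNAJB11, DNAJC3 and DNAJB1 on the horizontal axes. The first 3 panels rise from lower left to upper right (r = 0.954, 0.953 and 0.847), and the panel of DNAJB1 with HSPH1 has no such line (r = 0.143).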

How the data were processed

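RNA of 11 PC-3 xenograft tumours (5 PBS, 6 A2M*) was sequenced as single reads with a TruSeq kit. The authors demultiplexed with bcl2fastq 1.8.4, used xenome to keep the reads of human origin, aligned these to hg19 with TopHat2 and counted them per RefSeq gene with featureCounts; other versions and the handling of reads matching several places are not given in the sources used here. The deposited counts are raw. Beside them the authors gave RPM, counts per 1000000 of the tumour's total (largest difference on recomputing 4.99e-07), and RPKM, which is RPM per kilobase of exon. Mouse reads were not analysed here.

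Counts were filtered with filterByExpr, TMM-normalized and tested over 16630 genes in edgeR 4.0.16 (quasi-likelihood, R 4.3.3) with Benjamini-Hochberg adjustment and a threshold of 0.01. The standard error (SE) is the size of the log2 fold change over the root of F, and 95% intervals use it with the t quantile at 9 residual degrees of freedom. The fit was tested on simulated data. Depths of 16958533 to 35874381 counts put 3 counts at 0.0836 to 0.177 RPM (counting error only). Log2 CPM used a prior count of 2. Alternatives were other scalings and filters, DESeq2 1.42.0, edgeR's likelihood ratio test, limma-voom (limma 3.58.1) and each tumour left out.

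The members and lists were chosen with earlier results of these data known. Fold changes were printed for the 2 genes of each class with the highest mean RPKM, the 3 with the smallest p in each direction and the genes of the 7 pairs; any other is marked as named after its values were seen. Gene positions and exon overlaps are those of GENCODE on GRCh37, whose exons can differ from the RefSeq exons counted. Promoter sequences are those of RefSeq on GRCh38.p14.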

Additional observations from a re-analysis of the deposited data

Results flagged for a closer look

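In 36 groups of values searched (5 or 6 tumours each), 1 tumour stood apart by Dixon's criterion, where chance gives about 1.8 at 1 in 20. HSPA5 in A2M* tumour T131 was at 588.4 RPKM, and the other 5 A2M* tumours lay between 353.5 and 439.1. DNAJB11 was also highest in T131, at 108.2 RPKM. The correlation of DNAJB11 with HSPA5 was 0.858 with T128 and T131 left out.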

How the results depend on the processing

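Members past an adjusted p of 0.01 stayed at 0 in all 20 alternatives, and at 0 below 0.05 in every fit. Over all genes, DESeq2 and edgeR's likelihood ratio test each called 1 gene at 0.01, against 0 in the quasi-likelihood test. Members at an unadjusted p under 0.05 numbered 6 in that test and 3 to 6 with a tumour left out (3 without PBS T125 and 3 without A2M* T131, each time DNAJA1, DNAJB11 and DNAJC17). Of 247 alternative log2 fold changes, 240 kept their direction and side of the threshold and 7 reversed, all of DNAJA3 (library size only 0.0359, upper quartile 0.00646, tumours left out -0.0323 to 0.0282) and DNAJC8 (library size only 0.0103, tumours left out -0.0647 to 0.0128), both near 0. The class B median log2 fold change without a filter was -0.0301, and its median RPKM over the genes that passed was 10.2. Of 98 alternative correlations, 92 kept their sign and side of the threshold and 6 reversed sign, all in pairs that did not pass in either setting. For DNAJB1 and DNAJA1, removing group means gave 0.134 and tumours left out -0.646 to 0.219. DNAJB1 and HSPH1 ranged from -0.113 to 0.412, DNAJA3 and HSPA9 from -0.513 to 0.127, and DNAJB1 and DNAJB11 from -0.42 to 0.146 (0.0686 with group means removed). None of these 4 pairs passed an adjusted p of 0.05 (DNAJB1 and DNAJA1 without A2M* T128 had an unadjusted permutation p of 0.0426 and an adjusted one of 0.0745). The causes were not tested. No paired analysis was possible because the groups share no tumour numbers.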
